A study of Homo sapiens with 4 samples.

Results

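Proteasome genes were examined in poly(A)-selected RNA from H9 cells, an established line of human embryonic stem cells. All genes of the deposited table whose full name was PSM, a letter from A to G and a number were taken, which left out pseudogenes and antisense transcripts. This gave 48 genes of 60671. They encode the subunits of the 20S core (PSMA and PSMB), the 19S regulatory particle (PSMC and most PSMD), the activators (PSME), the inhibitor PSMF1 and the assembly chaperones (PSMG, PSMD5, PSMD9 and PSMD10). The 4 libraries formed 2 groups of 2, all grown in mTeSR medium without treatment. The first group was labelled control. The second carried an edited CFIm25 gene with overexpression of 3Flag-CFIm25 and is called KO+OE here. In the study, the re-expressing line was made with a lentivirus from 1 mutant clone, which had a low level of an N-terminally shortened CFIm25 protein. The labels do not say whether the control libraries came from unmodified cells or from cells given an empty vector, and the series calls the edit a knockdown where the sample labels call it a KO. Edited cells that lack the lentivirus are not part of these data as used here. The comparison asks whether proteasome gene expression differed between the re-expressing line and control cells.

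The proteasome is the main protease of the cytosol and nucleus and degrades proteins tagged with ubiquitin. The 20S core is a barrel of stacked rings, in which alpha subunits form the outer gates and beta subunits the inner rings. Of the beta subunits, PSMB5, PSMB6 and PSMB7 carry the active sites with chymotrypsin-like, caspase-like and trypsin-like activity. The 19S particle caps the core: its base unfolds substrates with a ring of ATPases, and its lid removes ubiquitin. In immune cells and after interferon, PSMB8, PSMB9 and PSMB10 replace PSMB5, PSMB6 and PSMB7 to form the immunoproteasome, which favours peptides for presentation on MHC class I. Each structural subunit is built into the particle in a fixed copy number.

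The deposited values were read as TPM, the level of a gene per transcript length on a scale common to each library. This unit is meant for comparing different genes. The transcript lengths behind it are not given in the sources used here, so comparisons between genes rest on this reading. Each library summed to between 986853 and 987078 TPM, and mitochondrial genes took 21.0% to 22.1%. TPM keeps no read counts, so the depth is unknown and the precision given here comes from the spread between 2 libraries. Nothing in the labels says that the libraries of a group came from separate cultures, and that spread may be technical. The libraries carried the markers of pluripotent cells: POU5F1 was at 2164 to 2212 TPM and LIN28A at 517 to 528 TPM. DNMT3B was at 216 to 225 TPM. NANOG, at 15.85 to 19.89 TPM, and SOX2, at 18.2 to 19.4 TPM, were far lower. PTPRC, the common leukocyte antigen, and LUM, a fibroblast gene, were listed at 0 in all 4 libraries, and DCN reached 0.08 TPM. CD74 at 107 to 116 TPM and COL1A1 at 53.9 to 55.6 TPM were the markers of other cell types above 50 TPM, and the groups overlapped for both. Of the endoderm markers, GATA6 was at 4.35 to 8.39 TPM, and the groups overlapped for it too. SOX17 was listed at 0 in all 4 libraries, and FOXA2 reached 0.02 TPM. The mesoderm markers TBXT and EOMES and the neural markers PAX6 and SOX1 were at 0.32 TPM or less. In bulk RNA, fewer cells of a type and less RNA per cell cannot be told apart. NUDT21, which encodes CFIm25, was at 161 and 152 TPM in control and 162 and 157 TPM in KO+OE. The groups overlapped, with a log2 fold change of 0.03 (limma, adjusted p = 0.980). The RNA level of NUDT21 thus showed neither a loss nor an excess. The paper reports that re-expression brought the CFIm25 protein back to about the endogenous level. The RNA value cannot test the KO or the overexpression separately. RNA from the edited gene and from the lentivirus was not told apart, and edited cells without the lentivirus are not among these libraries.

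Of the 48 genes, 46 had a mean of at least 1 TPM over the 4 libraries and were tested with the other genes of that level. The exceptions were the variants made in special tissues. PSMA8, the alpha subunit of the testis, was listed at 0.04 TPM in control replicate 1 and at 0 in the other libraries, and PSMB11, the beta subunit of the thymus, was listed at 0 in all 4. Together the 48 genes took 5682 and 5660 TPM in the control libraries and 5700 and 5518 TPM in the KO+OE libraries. This was 0.559% to 0.577% of each library. Constitutive beta subunits made up 43.4% of this sum, base subunits 16.3%, lid subunits 13.6% and alpha subunits 13.3%. Activators made up 5.56%, the 20S chaperones 3.26%, immunoproteasome subunits 1.95%, PSMF1 1.48% and the 19S chaperones 1.046%.

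**Figure D1:**
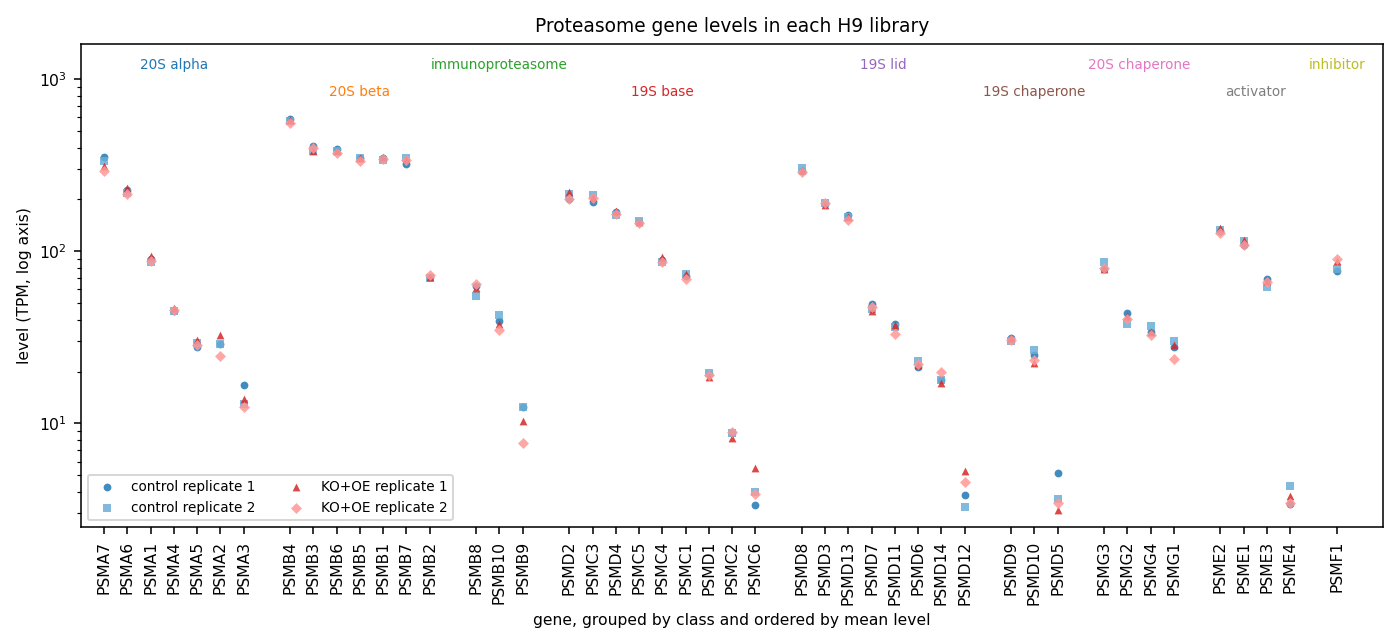
Level of the 46 tested proteasome genes in each library (TPM, log axis), grouped by class and ordered by mean within a class; each point is 1 library. The 4 libraries of a gene lie close together, while means of the genes run from 3.74 TPM for PSME4 to 574 TPM for PSMB4.

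The constitutive beta subunits were the most highly expressed class, with a median of 346 TPM over the 7 genes. PSMB4, a structural beta subunit, was the highest of all 48 genes, at 583 and 573 TPM in control and 580 and 559 TPM in KO+OE. It stood above 98.4% of all genes tested. The catalytic subunits lay close together. PSMB6 was at 390 and 381 TPM in control and 381 and 370 TPM in KO+OE. PSMB5, the target of the inhibitor bortezomib, was at 350.1 and 349.7 TPM in control and 349.7 and 336 TPM in KO+OE. PSMB7 was at 322 and 348 TPM in control and 342 and 338 TPM in KO+OE. Among the catalytic subunits the ranges of PSMB5 and PSMB7 therefore overlapped. Within the class PSMB2 stood apart, at 69.5 to 72.3 TPM in all 4 libraries, and the highest mean was 8.09 times the lowest.

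The alpha subunits, which form the gate of the core, were spread more widely. PSMA7 was the highest, at 350 and 334 TPM in control and 314 and 293 TPM in KO+OE. PSMA6 followed at 215 to 234 TPM and PSMA1 at 86.2 to 94.1 TPM. PSMA4 was at 44.7 to 47.1 TPM, and PSMA5 and PSMA2 overlapped, at 27.8 to 30.5 and 24.6 to 32.5 TPM. PSMA3 was the lowest, at 16.7 and 13.0 TPM in control and 13.9 and 12.5 TPM in KO+OE. The highest mean was thus 23.0 times the lowest in a ring where the subunits stand in equal number.

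In the 19S base, PSMD2, the large scaffold that docks ubiquitin carriers, and the ATPase PSMC3 had the highest means, 209.6 and 204 TPM, and their ranges overlapped. The ubiquitin receptor PSMD4 had a mean of 166 TPM, and the ATPases PSMC5, PSMC4 and PSMC1 had means of 148, 88.5 and 72.2 TPM. PSMC1 has close copies, of which PSMC1P1 was listed at 7.05 to 8.99 TPM and PSMC1P5 at 6.96 and 0 TPM in control and 0 and 2.24 TPM in KO+OE, so part of the level of PSMC1 is uncertain. These were the only 2 of 35 PSM pseudogenes in the table that averaged 1 TPM or more. How reads that match several copies were counted is not given in the sources used here. Genes whose copies were listed at 0, such as PSMA2, PSMA3, PSMC2, PSMD12 and PSMD14, are therefore uncertain too. The strand used in counting is not given, so genes with antisense partners, such as PSMA3 with PSMA3-AS1 at 1.03 to 1.88 TPM, are uncertain to that extent. The scaffold PSMD1 had a mean of 19.2 TPM. The remaining ATPases were far lower, although the hexamer holds all 6 in equal number. PSMC2 was at 8.74 and 8.78 TPM in control and 8.27 and 8.97 TPM in KO+OE. PSMC6 was at 3.36 and 4.01 TPM in control and 5.49 and 3.90 TPM in KO+OE, above only 35.9% of all genes tested. The mean of PSMD2 was 50.03 times that of PSMC6.

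The lid showed the widest spread, 69.6 times from lowest to highest. PSMD8 was at 293 and 304 TPM in control and 296 and 287 TPM in KO+OE. PSMD3 and PSMD13 had means of 189 and 158 TPM. PSMD7, the partner of the deubiquitinase, and PSMD11, a scaffold that has been linked to high proteasome activity in human embryonic stem cells, had means of 47.0 and 36.1 TPM. PSMD14, the deubiquitinase of the lid, was at 17.9 and 17.8 TPM in control and 17.1 and 19.98 TPM in KO+OE, next to PSMD6 with a mean of 21.997 TPM. PSMD12 was the lowest, at 3.86 and 3.25 TPM in control and 5.26 and 4.57 TPM in KO+OE.

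Structural subunits with GC-rich transcripts had higher levels than those with GC-poor transcripts. PSMC6, PSMD12 and PSMC2 had canonical transcripts with a GC content of 36.4%, 37.5% and 38.8%. PSMB4, PSMB3 and PSMB6, the 3 highest genes, stood at 52.0%, 53.4% and 55.2%. Among the 31 tested structural subunits of core, base and lid, the 5 with a GC content of up to 40% had a median level of 8.69 TPM and a highest of 29.0 TPM. The 9 between 50 and 55% had a median of 209.6 TPM and a lowest of 88.5 TPM. For these 31 genes, which do not count as replicates, the Spearman correlation of level with GC content was 0.767 to 0.781 in the 4 libraries, and with transcript length -0.636 to -0.624. Over all genes tested with a GC content, 12147 in number, the correlation with GC content was 0.264 to 0.277. With transcript length it was -0.194 to -0.186. TPM itself divides by transcript length, so level and length are not independent measures. The points share their libraries, and the part of either property was not tested. PSMA6 had a mean of 223 TPM at 43.8% GC, where the 7 structural genes between 40 and 45% had a median of 45.6 TPM. Outside the structural subunits, PSMB8, PSMB9, PSMB10, PSMD9, PSMG3 and PSMG4 had a GC content over 50% and means of 10.7 to 80.9 TPM. These lay below the lowest structural gene in that range. PSME1 and PSME2 also had a GC content over 50% but lay above that gene, with means of 112 and 132 TPM.

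**Figure D2:**
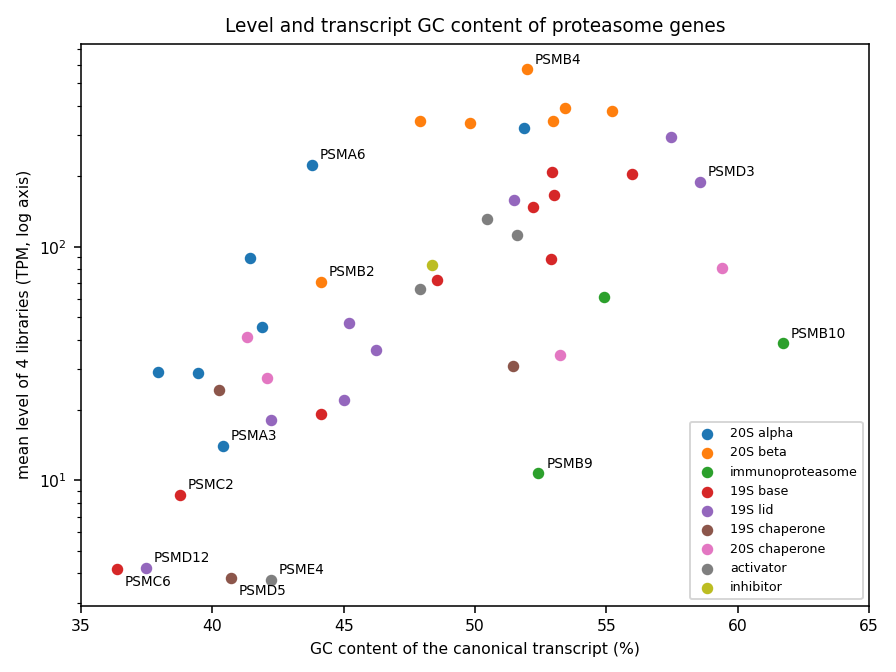
Mean level over 4 libraries (TPM, log axis) against GC content of the canonical transcript (%) for the 46 tested proteasome genes, coloured by class. Structural subunits with GC-poor transcripts such as PSMC6 and PSMD12 lie near 4 TPM, and those above 50% GC lie above 88 TPM.

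The immunoproteasome subunits were expressed in these unstimulated stem cells, below their constitutive counterparts. PSMB8, the counterpart of PSMB5, lies on chromosome 6 from 32840717 to 32844679 (GRCh38) and was at 62.9 and 55.3 TPM in control and 60.8 and 64.3 TPM in KO+OE. The groups overlapped for PSMB8. PSMB10, the counterpart of PSMB7, lies on chromosome 16 from 67934506 to 67936850 and was at 39.3 and 42.9 TPM in control and 37.6 and 34.6 TPM in KO+OE. PSMB9, the counterpart of PSMB6, lies on chromosome 6 from 32854192 to 32859851 and was at 12.4 and 12.4 TPM in control and 10.4 and 7.67 TPM in KO+OE. Both KO+OE libraries were below both control libraries for PSMB10 and PSMB9. Groups without overlap, in either direction, were seen for 34.1% of all genes tested. In relation to the constitutive subunit of the same library, PSMB8 stood at 16.9 ± 1.52% of PSMB5 in control and 18.3 ± 1.254% in KO+OE (SD, n = 2 each). PSMB10 stood at 12.3 ± 0.0800% of PSMB7 in control and 10.6 ± 0.514% in KO+OE. PSMB9 stood at 3.22 ± 0.0635% of PSMB6 in control and 2.39 ± 0.456% in KO+OE. For the 3 pairs together the share was 10.3% to 10.8% in control and 10.1% to 10.2% in KO+OE.

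PSME1 and PSME2 form the interferon-inducible activator PA28αβ, a ring that opens the core. PSME1 was at 109 and 115 TPM in control and 116 and 108 TPM in KO+OE. PSME2 was at 130.3 and 133 TPM in control and 135 and 128 TPM in KO+OE. The level of PSME2 was 116% to 120% of that of PSME1 in each library. The nuclear activator PSME3 was at 69.4 and 61.6 TPM in control and 67.5 and 65.9 TPM in KO+OE. PSME4, which encodes the large activator PA200, was at 3.41 and 4.31 TPM in control and 3.81 and 3.43 TPM in KO+OE. None of the activators separated the groups.

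Promoters of the immunoproteasome genes and of PSME1 and PSME2 are shown because these are the members known to respond to interferon. PSMB9 and PSMB10 also did not overlap between the groups, which held for 34.1% of all genes tested. Each run holds the 250 bases before the RefSeq start on GRCh38.p14, 5′ to 3′ on the strand of the gene. Capitals mark matches on either strand to GAAA, any 2 bases and GAAA, the core of the interferon-stimulated response element bound by IRF factors, or to TGACNNNGC, the core of the antioxidant response element bound by NFE2L1 and NFE2L2. The runs lie at chr6:32844680-32844929 (minus strand) for PSMB8, chr6:32853942-32854191 (plus) for PSMB9, chr16:67936851-67937100 (minus) for PSMB10, chr14:24135944-24136193 (plus) for PSME1 and chr14:24146611-24146860 (minus) for PSME2.
PSMB8: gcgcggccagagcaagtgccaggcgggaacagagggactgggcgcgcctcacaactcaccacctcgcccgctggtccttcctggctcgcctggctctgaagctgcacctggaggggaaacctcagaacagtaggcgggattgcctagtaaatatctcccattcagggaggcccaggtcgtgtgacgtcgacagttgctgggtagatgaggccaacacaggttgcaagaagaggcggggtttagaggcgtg
PSMB9: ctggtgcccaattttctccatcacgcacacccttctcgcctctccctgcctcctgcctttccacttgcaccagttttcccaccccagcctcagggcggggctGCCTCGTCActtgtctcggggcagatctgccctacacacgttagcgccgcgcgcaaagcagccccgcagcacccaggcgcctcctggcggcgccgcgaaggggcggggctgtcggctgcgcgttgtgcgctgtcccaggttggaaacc
PSMB10: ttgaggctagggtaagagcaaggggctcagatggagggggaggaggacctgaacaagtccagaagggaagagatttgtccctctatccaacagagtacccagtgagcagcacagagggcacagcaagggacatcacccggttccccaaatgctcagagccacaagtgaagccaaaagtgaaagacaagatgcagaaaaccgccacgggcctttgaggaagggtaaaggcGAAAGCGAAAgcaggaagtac
PSME1: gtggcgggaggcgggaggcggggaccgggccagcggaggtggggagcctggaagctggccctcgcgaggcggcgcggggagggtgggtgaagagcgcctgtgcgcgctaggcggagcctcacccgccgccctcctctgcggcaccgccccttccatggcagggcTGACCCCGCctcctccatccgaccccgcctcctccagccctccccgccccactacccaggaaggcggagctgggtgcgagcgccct
PSME2: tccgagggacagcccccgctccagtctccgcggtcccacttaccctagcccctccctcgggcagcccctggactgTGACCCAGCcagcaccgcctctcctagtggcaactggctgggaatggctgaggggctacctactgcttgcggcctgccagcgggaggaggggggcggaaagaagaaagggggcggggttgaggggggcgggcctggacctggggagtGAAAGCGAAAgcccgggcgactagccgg

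PSMB10 and PSME2 held the same match GAAAGCGAAA, which began 21 and 28 bases before the start. The PSMB8 run and the PSMB9 run held no match to this motif. PSMB9 starts 488 bases from TAP1, the gene of a subunit of the peptide transporter of MHC class I loading, which is transcribed in the opposite direction. Within the 250 bases before the TAP1 start, overlapping matches to the same motif began 134 and 128 bases before it. TAP1 was at 22.5 and 22.9 TPM in control and 24.7 and 22.3 TPM in KO+OE, so the groups overlapped for TAP1 where they did not for PSMB9. The set of RefSeq promoters used here held 42 of the 48 genes. It lacked PSMA7, PSMB1, PSMB6, PSMB7, PSMD4 and PSMG3, which are therefore left out of the shares and medians given for motifs. Of the 42 genes, 5, or 11.9%, held this motif: PSMA4, PSMB4, PSMB10, PSME2 and PSMG4. The share was 3.71% of all 27305 gene symbols with a promoter there. A gene with several RefSeq starts was counted once if any of them held a match, and 8 of the 42 had more than 1 start. For 6 of the 42, PSMG4 with its match among them, the starts lay away from the outer end of the gene's annotated span.

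Matches to TGACNNNGC are shown for some members of the core, lid and base assembly. The motif was searched because NFE2L1 is the known activator of proteasome genes when proteolysis falls short. Matches in PSMA4 of the core and PSMD9 of the base assembly are not shown. Of the genes shown, PSMD12 had the largest rise of the lid and PSMD5 the largest fall of the 19S chaperones. The windows hold 10 bases on either side of the match and lie at chr17:38752627-38752655 (plus) for PSMB3, chr17:39980760-39980788 (plus) for PSMD3, chr17:67366724-67366752 (minus) for PSMD12 and chr9:120843038-120843066 (minus) for PSMD5.
PSMB3: gcctccgtttTGACTTTGCaaccaaacta
PSMD3: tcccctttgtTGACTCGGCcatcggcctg
PSMD12: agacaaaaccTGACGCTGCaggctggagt
PSMD5: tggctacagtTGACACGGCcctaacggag
The motif stood in 13 of the 42 promoters, or 31.0%, and in 13.2% of all symbols with a promoter. Besides the genes shown, these were PSMA4, PSMB9, PSMC5, PSMD9, PSME1, PSME2, PSME4, PSMG1 and PSMG2. The start of PSMG1 lay away from the outer end of the gene's annotated span. The median log2 fold change between KO+OE and control was -0.0076 for the 13 genes, beside -0.02 for the other 27 tested genes with a promoter. NFE2L1 itself was at 98.5 and 97.1 TPM in control and 96.1 and 101 TPM in KO+OE. A match describes the letters of these windows and not binding.

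KO+OE was then compared with control over the 12319 genes that averaged 1 TPM or more, with limma on log2(TPM + 1). No proteasome gene passed an adjusted p of 0.05, and the lowest adjusted p among them was 0.925. Over all genes tested, 0.00812% passed this threshold. At an unadjusted p under 0.05 there were 5 proteasome genes of 46, 2 higher and 3 lower in KO+OE, beside 5.33% of all genes tested (2.26% higher and 3.06% lower). The KO+OE and control libraries did not overlap for 13 of the 46, 4 higher and 9 lower, beside 34.1% of all genes tested. The median log2 fold change of the 46 genes was -0.0097 and that of all genes tested -0.012. Of the 46 genes, 21 had a log2 fold change above 0, beside 45.5% of all genes. The median absolute log2 fold change was 0.04 for the members and 0.08 for all genes tested, and 0.03 and 0.05 among those at 10 TPM or more. The summed level of the members in KO+OE was 0.989 times that in control, and 0.998 times with median-ratio scaling. Mitochondrial genes took a larger share of both KO+OE libraries, and the part of this in the small differences was not tested.

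**Figure D3:**
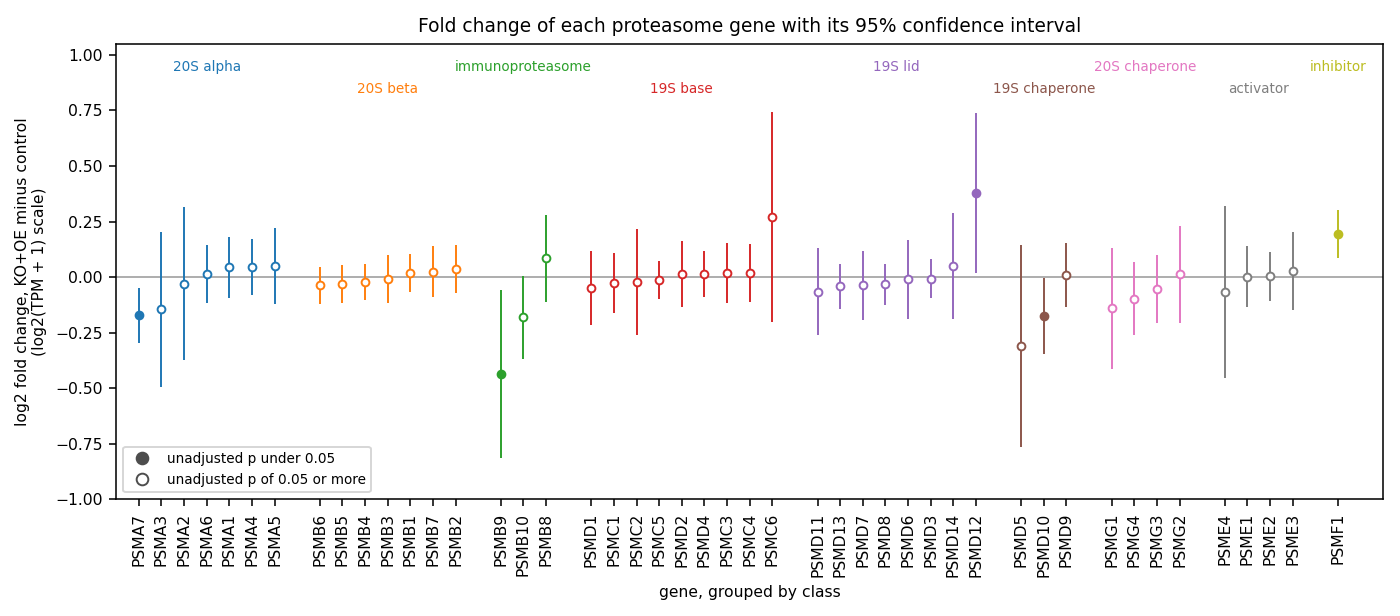
Log2 fold change of each of the 46 tested proteasome genes, KO+OE minus control, on the log2(TPM + 1) scale, with 95% confidence intervals from limma, grouped by class. Filled points are the 5 genes with an unadjusted p under 0.05; no gene passed the adjusted threshold.

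The size of a change that these libraries allow was narrow for most members. On log2(TPM + 1), which understates changes of low genes, all 46 tested genes had a 95% confidence interval inside 2-fold in either direction. The same held for 11409 of all 12319 genes tested. Intervals inside 1.5-fold were found for 42 of the members and for 8750 of all genes tested. At 10 TPM or more, an interval inside 1.5-fold was found for 40 of 41 members and for 5274 of all 5528 genes of that level. Replicate libraries differed by a median of 0.0604 (control) and 0.0695 (KO+OE) on the log2 scale over the members, in absolute value. The constitutive beta subunits were the most even class. Their log2 fold changes ran from -0.04 for PSMB6 to 0.03 for PSMB2, with 3 higher and 4 lower, and 0 of the 7 had an unadjusted p under 0.05. These small values moved with single libraries: that of PSMB6 was -0.015 without KO+OE replicate 2, -0.019 without control replicate 1 and -0.058 when KO+OE replicate 1 was left out. In the base, 5 of 9 were higher and 4 lower, from -0.05 for PSMD1 to 0.27 for PSMC6, again with 0 at an unadjusted p under 0.05. The interval of PSMC6 ran from -0.20 to 0.74, and the value was 0.07 when KO+OE replicate 1 was left out and was 0.47 without KO+OE replicate 2.

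PSMF1 had the lowest p of the 46 tested genes. It encodes PI31, which was described as an inhibitor of the isolated core, and lies on chromosome 20 from 1113263 to 1172246. It was at 77.2 and 79.0 TPM in control and 88.3 and 90.5 TPM in KO+OE, so that both KO+OE libraries lay above both control libraries. It had a log2 fold change of 0.19, the 95% interval ran from 0.09 to 0.30, and the adjusted p by limma was 0.925. Leaving out any single library gave 0.18 to 0.21.

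PSMA7 lies on the same chromosome from 62136733 to 62143394 and had the opposite order. Both KO+OE libraries, 314 and 293 TPM, were below both control libraries, 350 and 334 TPM. The log2 fold change was -0.17 with an interval of -0.30 to -0.05 (limma, adjusted p = 0.928), and it was -0.12 without KO+OE replicate 2. The other 6 tested alpha subunits had log2 fold changes from -0.15 for PSMA3 to 0.05 for PSMA5. The value of PSMA3 turned to 0.02 without control replicate 1, the highest of the 4 libraries, and was -0.32 when control replicate 2 was left out and -0.075 when KO+OE replicate 2 was. That of PSMA5 was 0.0019 when KO+OE replicate 1 was left out, 0.01 without control replicate 1 and 0.09 when either of the others was left out.

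Of the immunoproteasome subunits, PSMB9 had a log2 fold change of -0.44 with an interval of -0.81 to -0.06 (limma, adjusted p = 0.928). The size rested on KO+OE replicate 2, since it was -0.24 without that library and -0.63 without KO+OE replicate 1. PSMB10 had a log2 fold change of -0.18 with an interval of -0.37 to 0.0038 (limma, adjusted p = 0.931), which was -0.12 without control replicate 2. PSMB8 had a log2 fold change of 0.08 with an interval of -0.11 to 0.28. It was 0.18 without control replicate 1 but -0.0071 with control replicate 2 left out. The members of this class therefore differed in direction, and none passed the adjusted threshold.

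**Figure D4:**
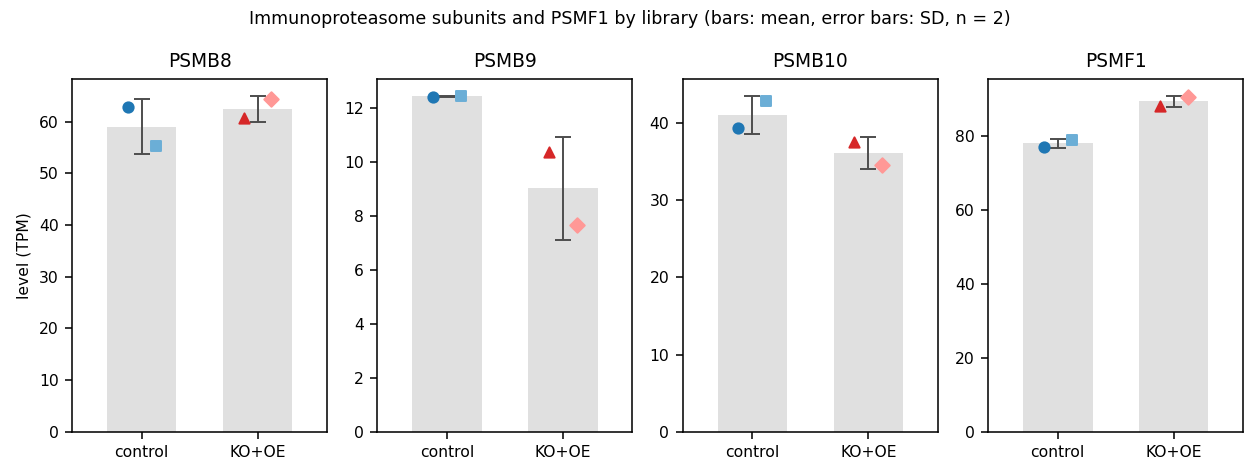
Levels of PSMB8, PSMB9, PSMB10 and PSMF1 in each library (TPM, linear axes from 0; bars are means, error bars SD, n = 2; circles and squares are control replicates 1 and 2, triangles and diamonds KO+OE replicates 1 and 2). PSMB9 and PSMB10 were lower and PSMF1 higher in both KO+OE libraries, while the groups overlapped for PSMB8.

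In the lid, PSMD12 had a log2 fold change of 0.38 with an interval of 0.02 to 0.74 (limma, adjusted p = 0.928), at levels under 6 TPM where the libraries are least precise. The other 7 lid genes ran from -0.07 for PSMD11 to 0.05 for PSMD14, and that of PSMD11 was 0.02 without KO+OE replicate 2 but -0.15 with KO+OE replicate 1 left out. That of PSMD14 turned to -0.06 without KO+OE replicate 2 and was 0.15 when KO+OE replicate 1 was left out. The chaperones guide assembly and leave the finished particle. Among those of the 19S base, PSMD10, also known as gankyrin, was at 25.0 and 26.8 TPM in control and 22.4 and 23.2 TPM in KO+OE. The difference was -0.18 on the log2 scale, with an interval of -0.35 to -0.0032 (limma, adjusted p = 0.931). PSMD5 was at 5.12 and 3.64 TPM in control and 3.15 and 3.45 TPM in KO+OE. The log2 difference of -0.31 was -0.11 without control replicate 1 but -0.51 with control replicate 2 left out. PSMD9 was at 30.2 to 31.3 TPM in all 4 libraries.

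The chaperones of the 20S core were lower in KO+OE for 3 of 4 genes, with 0 at an unadjusted p under 0.05. PSMG1 was at 27.8 and 30.0 TPM in control and 28.7 and 23.7 TPM in KO+OE, and its log2 fold change of -0.14 was -0.0082 without KO+OE replicate 2 but -0.27 with KO+OE replicate 1 left out. PSMG4 was at 34.2 and 36.9 TPM in control and 33.8 and 32.5 TPM in KO+OE. The groups overlapped for PSMG2 and PSMG3. Summed over the 4 genes, control had 188 ± 4.82 TPM and KO+OE had 179.9 ± 4.99 TPM (SD, 2 libraries each). With 2 libraries against 2, an exact permutation test of a single sum cannot go below p = 0.333, and none was made.

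A list of 29 partners of the proteasome was read in the same fit, and 28 of them were tested. Of these, 16 were higher and 12 lower in KO+OE, with a median log2 fold change of 0.01. None passed an adjusted p of 0.05, and 3 of 28 had an unadjusted p under 0.05, all lower, beside 5.33% of all genes tested (3.06% lower). POMP, the maturation factor that is consumed as the core is completed, was at 25.8 and 23.5 TPM in control and 21.4 and 21.6 TPM in KO+OE. On the log2 scale the difference was -0.19 (limma, adjusted p = 0.931) and -0.12 without control replicate 1. PITHD1, which has been linked to proteasome activation, had a log2 fold change of -0.16. ADRM1, a ubiquitin receptor of the base, was at 202 to 210.2 TPM in the 4 libraries with a log2 fold change of 0.01, which turned to -0.02 without KO+OE replicate 2. SEM1, the small lid subunit without a PSM name, was at 63.3 and 74.8 TPM in control and 88.8 and 63.7 TPM in KO+OE, and its log2 fold change of 0.13 was -0.11 without KO+OE replicate 1.

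Of 6 genes that act with the immunoproteasome in antigen presentation or control its genes, 4 were higher and 2 lower, and 0 had an unadjusted p under 0.05. IRF1, a transcription factor induced by interferon, was at 2.73 and 3.58 TPM in control and 4.74 and 4.16 TPM in KO+OE, with a log2 fold change of 0.40 (limma, adjusted p = 0.931) that was 0.25 without control replicate 1. NLRC5, the transactivator of MHC class I genes, was at 4.94 and 7.04 TPM in control and 6.17 and 6.73 TPM in KO+OE. The log2 difference of 0.11 was -0.11 without control replicate 1. B2M, the light chain of MHC class I, was at 173 to 186 TPM in the 4 libraries, and its log2 fold change of 0.05 was 0.00023 without control replicate 2 but 0.10 with control replicate 1 left out. TAP2 was at 4.85 and 4.16 TPM in control but at 1.47 and 7.34 TPM in KO+OE, so that its log2 fold change of -0.28 was 0.60 without KO+OE replicate 1 but -1.15 with KO+OE replicate 2 left out.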

How the data were processed

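Libraries of oligo(dT)-selected RNA were sequenced as paired ends in 2 control and 2 KO+OE samples, grouped by sample title. The submitters' processing notes name HISAT2, featureCounts, Subread and DESeq2, without their roles, and hg38. Versions, annotation release and strand setting are not given in the sources used here. The deposited table has 1 value per gene and library without a named unit, rounded to 2 decimals. It was read as TPM, made by the authors, because the columns sum to nearly the same total. TPM divides by transcript length and total, so 1 abundant gene lowers the others. Columns of other samples numbered 0. No count test was made, since TPM are not counts, and depth is unknown.

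Members were found by name, and classes and partner lists were chosen with earlier results of these data known. Genes named with values included, in each class, the highest and lowest, those with the largest difference in either direction, and those at an unadjusted p under 0.05. The catalytic, immunoproteasome and activator genes were named too. Other members were named with values to describe the levels within a class. Values were compared on log2(TPM + 1), which understates changes of low genes, for the 12319 genes that averaged 1 TPM or more, by limma 3.58.1 (lmFit, eBayes with a mean-dependent prior, two-sided, R 4.3.3). The model held the group alone. Benjamini-Hochberg adjustment ran over every gene in the fit. The fit was tested on simulated data. The fit was repeated with a pseudocount of 0.1 or 5, without a filter or with one at 5 TPM, after median-ratio or quantile scaling, with a constant prior, with a replicate block, and without each library in turn. Transcript length and GC content were taken from canonical transcripts of GENCODE 44 (on GRCh37), by Ensembl identifier. Gene positions and promoters are from RefSeq on GRCh38.p14, by symbol. Python 3.11.15, pandas 2.3.3, numpy 2.4.6, scipy 1.17.1 and matplotlib 3.10.9 were used. Values of some listed partner genes are not reported here.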

Additional observations from a re-analysis of the deposited data

How the results depend on the processing

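No proteasome gene passed an adjusted p of 0.05 in limma under any alternative run. The number at an unadjusted p under 0.05 was 5, and it was 2 without a mean-dependent prior (PSMD12 and PSMF1) and 1 to 5 when single libraries were left out. It was 1 without control replicate 1 and 1 without KO+OE replicate 2, PSMF1 in both cases, and 3 without control replicate 2. With a library left out, the lone sample was assumed to vary like the other group. Libraries of the same replicate number did not deviate together (correlation -0.0485), so the numbers gave no pairing, and the fit with the replicate block gave 4 genes at an unadjusted p under 0.05 and 0 at an adjusted p. With median-ratio scaling the summed level in KO+OE relative to control was 0.998 for all members, beside 0.989. It was 0.992 for the lid, beside 0.983, and 0.944 for the 19S chaperones, beside 0.936. This scaling divides each library by 1 factor, so the sums of all classes rose by nearly the same proportion. Why the factors differed between the groups was not tested. Of 37 genes followed across these runs, 17 changed sign when a library was left out, and 0 did so under the other alternatives. Their log2 fold changes ran from -0.016 to 0.036 for ADRM1, -0.025 to 0.041 for NFE2L1, -0.11 to 0.33 for NLRC5, -0.32 to 0.023 for PSMA3, -0.032 to 0.078 for PSMB7, -0.0071 to 0.18 for PSMB8, -0.15 to 0.020 for PSMD11, -0.056 to 0.15 for PSMD14, -0.011 to 0.033 for PSMD9, -0.050 to 0.054 for PSME1, -0.037 to 0.043 for PSME2, -0.057 to 0.11 for PSME3, -0.20 to 0.066 for PSME4, -0.093 to 0.12 for PSMG2, -0.11 to 0.36 for SEM1, -0.024 to 0.12 for TAP1 and -1.15 to 0.60 for TAP2. With 2 libraries a group and no read counts, counting error could not be separated from the spread between libraries.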
